A study of Homo sapiens with 12 samples.

Results

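The genes followed here through quinacrine (QC) treatment are 10 of the immediate early response: the AP-1 subunit genes FOS, FOSB, FOSL1, JUN and JUNB, the transcriptional regulators EGR1 and IER2, the phosphatase genes DUSP1 and DUSP6, and MYC. They were taken by name as 10 of the 60669 gene IDs in the table, and all 10 were among the 18720 genes that passed the filter on low counts. Each of 6 cell lines, which the study describes as ovarian cancer lines, gave 1 vehicle and 1 QC library, 12 in all. HeyA8, SKOV3 and OV2008 are the chemosensitive lines, and HeyA8_MDR (carboplatin resistant), SKOV3_TR (taxol resistant) and OV2008_C13 (cisplatin resistant) are their isogenic resistant partners. Cells received 8 µM QC for 6 h in growth medium, and the vehicle cultures received buffer for the same time. With 1 library per line and treatment, the cell line was the replicate, with 3 sensitive and 3 resistant lines, and no line had a replicate of its own. The 6 lines form 3 isogenic pairs, so they are not 6 independent replicates.

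Immediate early genes are those that growth factors and stress switch on without the need for newly made protein. Their mRNAs are made in a burst and decay quickly, so that a single time point catches one moment of the response. ERK and the other MAP kinases activate the factors bound at these genes, the FOS and JUN proteins then pair to form AP-1, EGR1 acts as a zinc finger factor, and the dual specificity phosphatases DUSP1 and DUSP6 switch the MAP kinases off again. MYC, a regulator of growth and ribosome production, is induced by the same signals.

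Library totals ran from 17782556 to 30585059 counts, with a median of 22289428. The HeyA8 QC library stood apart in its position between the lines of its family. Over the genes at least 8-fold higher or lower in HeyA8_MDR than in HeyA8 vehicle, it lay 38.4% (32 genes) and 51.3% (75 genes) of the way to HeyA8_MDR. These genes were picked from the same vehicle libraries that mark the ends of the scale. Such a position can therefore not show a difference of identity by itself, and a QC effect on these genes was not told apart from it. The OV2008 QC library lay 31.3% of the way to OV2008_C13 over 41 genes lower in that line, and the other positions ran from -4.4% to 17.7%. The ovarian marker PAX8 was present at 234.1 to 479.6 CPM (counts scaled to the size of the library) in the HeyA8 and SKOV3 families but at 7.56 to 24.8 CPM in OV2008 and OV2008_C13, where the squamous markers KRT5 (2550 to 11210 CPM) and TP63 (108 to 329.1 CPM) were high. The other 3 ovarian markers did not follow PAX8, with MSLN at most 16.9 CPM (OV2008_C13), MUC16 at most 10.9 CPM (SKOV3) and WT1 at most 4.79 CPM (HeyA8). KRT5 was at 0 in the HeyA8 family and SKOV3 but at 49.4 CPM in SKOV3_TR vehicle and 25.6 CPM with QC. Leukocyte markers summed to at most 0.665 CPM in any library, and the endothelial marker CDH5 reached 89.3 to 176.1 CPM in the HeyA8 family, where VWF, the other one measured, was at 0.468 to 5.1 CPM. With low PAX8 and high squamous markers, the ovarian label of OV2008 and OV2008_C13 is in doubt, and it was not tested further. The part of these differences in position and markers in the values that follow was not tested. In such bulk RNA fewer cells of a kind and less RNA per cell cannot be told apart.

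The genes lie apart in the genome. In RefSeq GRCh38.p14, FOS is at chr14:75278828-75282230, FOSB at chr19:45467996-45475179, FOSL1 at chr11:65892049-65900545, JUN at chr1:58780791-58784047 and JUNB at chr19:12791486-12793315. EGR1 is at chr5:138465479-138469303, IER2 at chr19:13150411-13154911, DUSP1 at chr5:172768096-172771195 and DUSP6 at chr12:89347235-89352501. Exons of 4 of the 10 overlap a gene on the opposite strand: 14.2% of JUNB exon bases lie in HOOK2, 30.7% and 21.5% of those of IER2 in the long noncoding RNA genes ENSG00000267598 and ENSG00000287296, 28.6% of those of DUSP6 in ENSG00000274021, and 3.2% of those of MYC in CASC11. The strand setting of the counting is not given in the sources used here, so reads from both genes of such a pair may be joined in the values of these 4 genes.

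The set of RefSeq promoters used here held 8 of the 10 genes, all but FOSL1 and MYC, and the 250 bases before the start were searched on both strands. They shared 1 short element: the cyclic AMP response core TGACG, the binding letters of the CREB and ATF factors, was in 7 of the 8 windows (all but DUSP6), against 21.2% of 35116 promoters of the same length. The 5 windows printed here belong to the genes that passed the unadjusted threshold in one of the comparisons that follow and had such a core. Capitals mark the cores on either strand (TGACG or CGTCA), the full cyclic AMP response element TGACGTCA and the CArG boxes, where serum response factor binds. The windows are chr14:75278578-75278827 on the plus strand for FOS, chr19:45467746-45467995 on the plus strand for FOSB, chr19:12791236-12791485 on the plus strand for JUNB, chr5:138465229-138465478 on the plus strand for EGR1, and chr5:172771196-172771445 on the minus strand for DUSP1.
FOS: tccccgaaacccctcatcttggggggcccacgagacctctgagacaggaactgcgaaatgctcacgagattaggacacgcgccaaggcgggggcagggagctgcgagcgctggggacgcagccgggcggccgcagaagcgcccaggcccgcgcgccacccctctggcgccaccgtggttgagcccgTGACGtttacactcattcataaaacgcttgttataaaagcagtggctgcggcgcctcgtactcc
FOSB: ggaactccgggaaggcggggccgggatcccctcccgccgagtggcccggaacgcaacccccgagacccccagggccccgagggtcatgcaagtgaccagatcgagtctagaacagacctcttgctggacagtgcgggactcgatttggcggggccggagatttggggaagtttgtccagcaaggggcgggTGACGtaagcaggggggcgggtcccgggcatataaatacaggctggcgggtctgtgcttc
JUNB: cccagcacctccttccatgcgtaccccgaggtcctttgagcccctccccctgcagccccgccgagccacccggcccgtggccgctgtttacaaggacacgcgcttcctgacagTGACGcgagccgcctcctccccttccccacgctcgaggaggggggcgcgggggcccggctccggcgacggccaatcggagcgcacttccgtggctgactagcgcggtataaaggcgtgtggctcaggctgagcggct
EGR1: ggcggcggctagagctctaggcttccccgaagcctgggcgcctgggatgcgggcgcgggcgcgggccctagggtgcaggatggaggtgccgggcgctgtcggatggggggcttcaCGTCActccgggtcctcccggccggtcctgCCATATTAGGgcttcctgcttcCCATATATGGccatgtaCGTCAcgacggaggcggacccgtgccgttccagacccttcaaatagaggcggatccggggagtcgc
DUSP1: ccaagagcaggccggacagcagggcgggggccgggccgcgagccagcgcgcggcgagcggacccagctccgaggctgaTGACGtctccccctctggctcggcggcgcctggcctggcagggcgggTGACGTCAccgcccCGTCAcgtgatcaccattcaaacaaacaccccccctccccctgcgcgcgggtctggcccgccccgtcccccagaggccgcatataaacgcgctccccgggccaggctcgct

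The core ran from -64 to -60 relative to the start in FOS and from -60 to -56 in FOSB, nearly the same distance. JUNB held it at -137 to -133, and EGR1 held a pair, starting at -135 and -66, on the minus strand. EGR1 was also the single window with CArG boxes, from -105 to -96 and from -83 to -74, against 1.16% of all promoters. DUSP1 held 4 cores, of which the pair starting at -125 and -122 overlap within its full element, and that element was in 1.65% of all promoters. The letters TATAAA, sought on the plus strand only, stood in 4 of the 8 windows (FOS, FOSB, JUNB and DUSP1), between -33 and -25 from the start, against 6.8% of all promoters. The E-box CACGTG, the letters that MYC binds, was in DUSP1 alone of the 8, sharing bases with the core that starts at -111 (6.34% of all promoters), the AP-1 letters TGANTCA in 0 of 8 (6.57%) and the EGR letters GCGTGGGCG in 0 of 8 (0.72%). These are matches of letters, and no binding was measured.

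In vehicle the genes differed widely in level, both among themselves and from line to line. Per kilobase of exon, the mean vehicle level over 6 lines was highest for FOSL1 at 164.3 CPM per kb, followed by JUN (55.9), JUNB (50.4), DUSP1 (31.4), MYC (30.1), IER2 (19.3), DUSP6 (15.5) and EGR1 (15.4), and it was lowest for FOS (1.20) and FOSB (1.05). IER2 was the steadiest of the 10 across lines, with a 1.78-fold range of vehicle CPM, and MYC followed with 2.87-fold. FOSB spanned a 41.1-fold range, from 0.418 CPM in SKOV3 to 17.2 CPM in OV2008, JUN a 26.7-fold range and EGR1 a 23.1-fold range. The ranges over the lines of all neighbours in this order overlapped, so no neighbouring pair was separated by its spread.

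**Figure D1:**
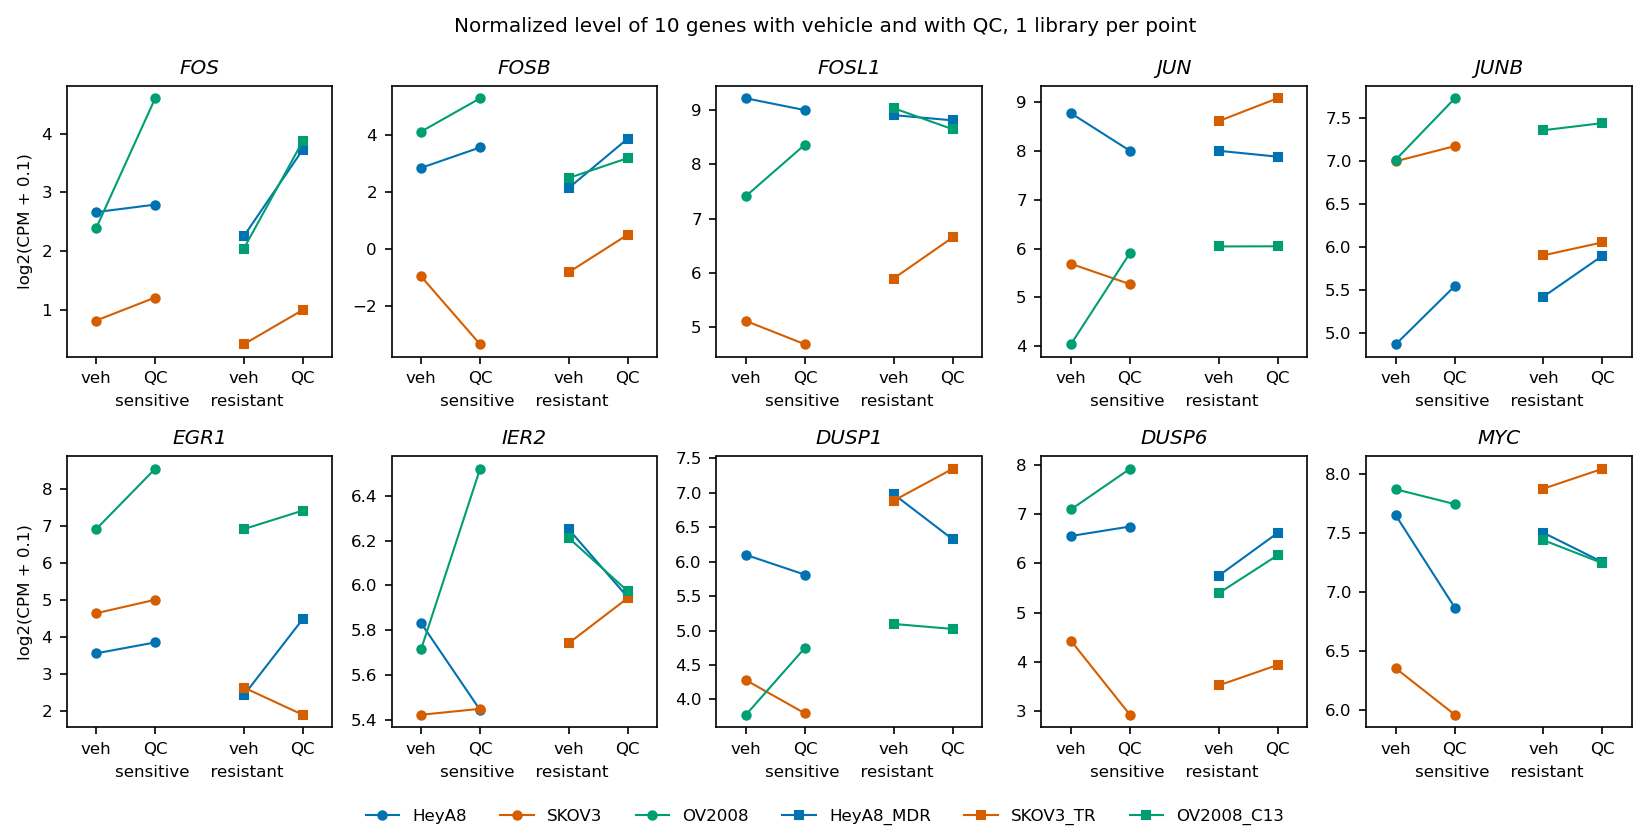
Normalized level of each gene in the 12 libraries, as log2(CPM + 0.1), where the 0.1 is added only so that a 0 can be drawn. Lines join the vehicle and QC library of 1 cell line, circles are sensitive and squares resistant lines, and colour marks the isogenic family. FOS and JUNB have a higher QC point in all 6 lines.

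The plot of levels sets these ranges beside the changes with QC, which were at most 4.62-fold upward for any of the 10 genes in any line. The shares among the AP-1 subunit genes followed here also differed between lines. FOSL2 and JUND were left out of these sums, so the shares are not those of the whole families. FOSL1 made up 92.3% to 99.2% of the summed FOS, FOSB and FOSL1 level per kb in every library, vehicle or QC. JUN made up 88.3% of the summed JUN and JUNB level per kb in HeyA8 vehicle, 75.1% in HeyA8_MDR and 76.7% in SKOV3_TR, but 16.9% in SKOV3, 16.8% in OV2008_C13 and 6% in OV2008. With QC the JUN share was 73.5%, 66.6%, 80.4%, 11.9%, 16.1% and 12.5% in the same order. The lines with more JUN than JUNB kept more JUN, and those with more JUNB kept more JUNB.

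The first comparison asked which of these genes changed with QC over all 6 lines. FOS, FOSB, JUNB and EGR1 were higher with QC at an unadjusted p under 0.05, and none of the 10 was lower. That is 4 of 10 genes, where 7.99% of all genes tested passed higher, 7.18% lower and 15.2% in either direction. After Benjamini-Hochberg adjustment over 18720 genes, edgeR's quasi-likelihood test called 0 of the 10 and 0 of all genes at 0.05, while DESeq2 called 518 genes, FOS among them (adjusted p = 0.0147). The adjusted p of FOS ran from 0.000223 to 1 over all alternatives. The median log2 change was 0.22 over the 10 genes and 0.00 (0.000101) over all genes.

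FOS, the AP-1 subunit that pairs with JUN proteins, had the largest change of the 10. Its vehicle level was 6.25 CPM in HeyA8, 1.67 in SKOV3, 5.15 in OV2008, 4.675 in HeyA8_MDR, 1.24 in SKOV3_TR and 4.03 in OV2008_C13. Its QC level in the same order was 6.835, 2.225, 24.1, 13.15, 1.91 and 14.5 CPM. QC was higher in 6 of 6 lines, by 4.62-fold in OV2008, 3.56-fold in OV2008_C13 and 2.78-fold in HeyA8_MDR but by 1.09-fold to 1.5-fold in HeyA8, SKOV3 and SKOV3_TR, and the vehicle and QC values overlapped between lines. Over all genes tested, 4.13% were higher in all 6 lines. The fitted log2 change was 1.16 ± 0.288 (SE, 6 lines, 95% interval 0.536 to 1.79, adjusted p = 0.153, edgeR's quasi-likelihood test). Leaving out each line in turn gave log2 changes of 0.931 to 1.39, each past the unadjusted threshold. These fits count isogenic partners as separate replicates, and none leaves out a whole family. The counts behind it were 36 to 547.

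FOSB, the near relative of FOS, had even fewer reads. It had 160, 10, 307, 83, 16 and 166 counts in vehicle HeyA8, SKOV3, OV2008, HeyA8_MDR, SKOV3_TR and OV2008_C13, and 320, 0, 878, 245, 25 and 239 counts with QC. It was higher with QC in 5 of 6 lines, by 1.62-fold (OV2008_C13) to 3.32-fold (HeyA8_MDR). SKOV3 was the exception: against 3 counts in the QC library, taken as the limit for a count of 0, FOSB was 3.07-fold lower there. That value covers counting error of the QC count only and takes the 10 vehicle counts as exact. It also takes each count as a separate fragment, although both mates of a pair may have been counted at low levels. It is therefore no firm lower bound. The fitted log2 change was 0.93 ± 0.349 (SE, 6 lines, 95% interval 0.171 to 1.69, adjusted p = 0.239, edgeR). It was 0.72 without HeyA8_MDR and 0.84 without OV2008, and in neither fit did it pass the unadjusted threshold.

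JUNB, a JUN family subunit, made a small and even change. Its vehicle level was 29.2, 127.8, 129.5, 42.85, 59.8 and 164.2 CPM and its QC level 46.7, 144.5, 212.4, 59.65, 66.4 and 173.9 CPM in HeyA8, SKOV3, OV2008, HeyA8_MDR, SKOV3_TR and OV2008_C13. QC was higher in 6 of 6 lines, by 1.06-fold to 1.64-fold, with OV2008 and HeyA8 highest. The fitted log2 change was 0.38 ± 0.124 (SE, 6 lines, 95% interval 0.11 to 0.648, adjusted p = 0.198, edgeR), and leaving out each line gave 0.314 to 0.428, each past the unadjusted threshold. JUN itself split the lines. It was 3.65-fold higher with QC in OV2008, from 292 to 1359 counts, 1.38-fold higher in SKOV3_TR and level in OV2008_C13, and it stood at 0.586 of vehicle in HeyA8, 0.749 in SKOV3 and 0.92 in HeyA8_MDR. Its fitted log2 change was 0.14 (95% interval -0.434 to 0.716, adjusted p = 0.839, edgeR), and leaving out OV2008 made it -0.16. FOSL1, more abundant here than FOS and FOSB, had a log2 change of 0.09 (95% interval -0.318 to 0.504, adjusted p = 0.854, edgeR). QC was higher in OV2008 (170.4 to 328.9 CPM) and SKOV3_TR (59.4 to 100.4 CPM) and lower in the other 4 lines.

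EGR1, which binds GC-rich promoters, reached its largest fold in a resistant line. Its vehicle level was 11.65, 24.85, 121, 5.25, 6.085 and 121.1 CPM and its QC level 14.3, 32.1, 376.4, 22.3, 3.605 and 171.7 CPM in HeyA8, SKOV3, OV2008, HeyA8_MDR, SKOV3_TR and OV2008_C13. HeyA8_MDR (4.19-fold) and OV2008 (3.11-fold) stood highest, HeyA8, SKOV3 and OV2008_C13 ran from 1.23-fold to 1.42-fold, and SKOV3_TR went the other way, to 0.598 of vehicle (206 to 68 counts). The fitted log2 change was 0.71 ± 0.284 (SE, 6 lines, 95% interval 0.0925 to 1.33, adjusted p = 0.268, edgeR). Like FOSB, it did not pass the unadjusted threshold without HeyA8_MDR (0.45) or without OV2008 (0.50). IER2, a small nuclear regulator, was near level: the log2 change was 0.02 (95% interval -0.322 to 0.352, adjusted p = 0.975, edgeR), with QC 1.75-fold higher in OV2008 and at 0.763 to 1.15 of vehicle in the other 5 lines.

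Neither phosphatase passed the test over 6 lines. DUSP1, which acts on p38, JNK and ERK, had a log2 change of -0.02 (95% interval -0.436 to 0.399, adjusted p = 0.975, edgeR), which was 0.16 when libraries were scaled to RPLP0, a ribosomal protein gene. OV2008 (1.96-fold) and SKOV3_TR (1.38-fold) were above vehicle and the other 4 lines stood at 0.635 to 0.951 of it. DUSP6, the ERK phosphatase used as a readout of ERK output, was above vehicle in 5 of 6 lines. Its vehicle level was 94, 21.5, 136.5, 53.7, 11.4 and 41.9 CPM and its QC level 107.4, 7.54, 241.8, 98.1, 15.3 and 71.7 CPM in HeyA8, SKOV3, OV2008, HeyA8_MDR, SKOV3_TR and OV2008_C13. SKOV3 went the opposite way, from 515 to 166 counts (0.352 of vehicle), while the other 5 lines ran from 1.14-fold to 1.83-fold. The log2 change over 6 lines was 0.31 ± 0.256 (SE, 95% interval -0.25 to 0.864, adjusted p = 0.599, edgeR). Without SKOV3 it was 0.61 and passed the unadjusted threshold (adjusted p = 0.0934, edgeR, against 0.0934 to 1 over all alternatives).

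MYC stood below vehicle in most lines. Its vehicle level was 200.3, 81.7, 233.4, 180.9, 234.3 and 173.2 CPM and its QC level 116.6, 62.2, 214, 152.3, 263.2 and 151.4 CPM in HeyA8, SKOV3, OV2008, HeyA8_MDR, SKOV3_TR and OV2008_C13. QC was below vehicle in 5 of 6 lines, most in HeyA8 (0.582) and SKOV3 (0.762), and above it in SKOV3_TR (1.12-fold). Of all genes 16.3% were below vehicle in at least 5 lines, and 16% above. The fitted log2 change was -0.26 ± 0.129 (SE, 95% interval -0.542 to 0.02, adjusted p = 0.359, edgeR), and it did not pass the unadjusted threshold. Without SKOV3_TR it was -0.35 and passed, and with scaling to RPLP0 it was -0.08 and did not.

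**Figure D2:**
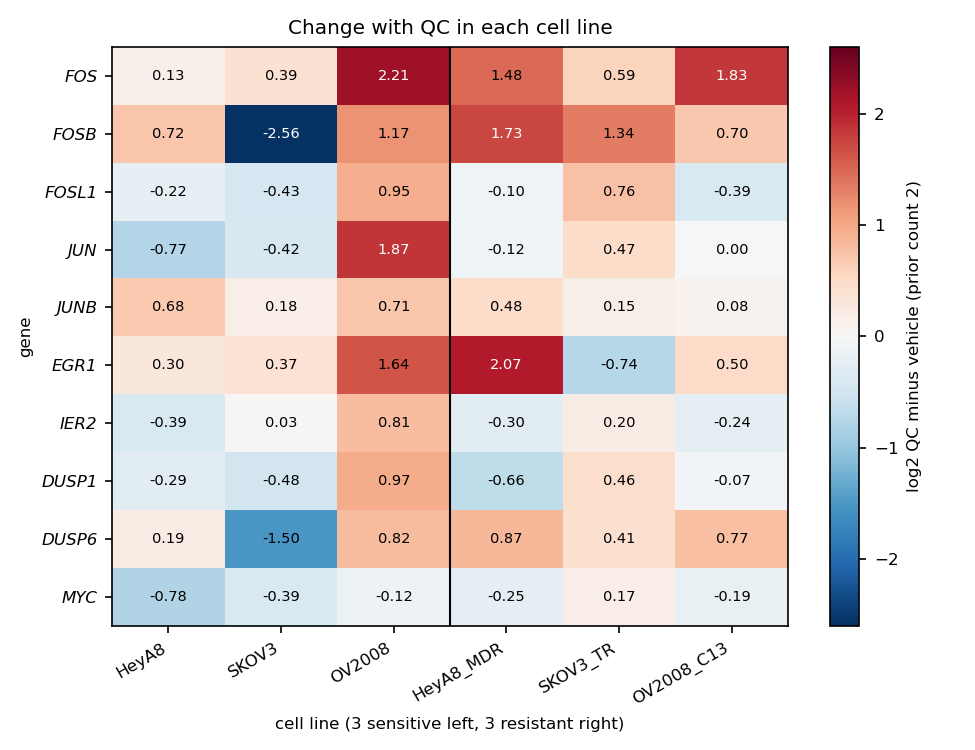
Change of each gene with QC in each line, as the log2 difference of normalized CPM with a prior count of 2 added, from 1 vehicle and 1 QC library. Red is higher and blue lower with QC. OV2008 and SKOV3_TR are red for 9 of 10 genes and SKOV3 for 4 of 10, and FOSB and DUSP6 in SKOV3 are the deepest blue.

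Read by line, the heatmap shows OV2008 with the most genes at least 2-fold above vehicle. There 9 of 10 genes were above vehicle (49.5% of all genes), as were 9 of 10 in SKOV3_TR (47.3%), and 4 of 10 (FOS, FOSB, JUN and EGR1) at least 2-fold, against 9.86% of all genes at least 2-fold above in that line. In HeyA8_MDR 3 of 10 (FOS, FOSB and EGR1) were at least 2-fold above (7.12% of all genes), in OV2008_C13 1 of 10 (FOS, 8.24%) and in SKOV3_TR 1 of 10 (FOSB, 3.64%). HeyA8 had 0 of 10 at least 2-fold above (10.2%), and SKOV3, where 4 of 10 were above vehicle at all (49%), had 0 of 10 at least 2-fold above (4.15%) and 2 of 10, FOSB and DUSP6, at least 2-fold below (4.12%). The median log2 change of the 10 genes was 0.96 in OV2008, 0.44 in SKOV3_TR, 0.19 in HeyA8_MDR, 0.04 in OV2008_C13, -0.05 in HeyA8 and -0.41 (-0.405) in SKOV3. These per-line values have no replicate check.

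The design also asked about the sensitive and resistant lines apart. In the sensitive lines FOS (log2 change 0.94 ± 0.424 SE) and JUNB (0.52 ± 0.182) were higher and MYC (-0.43 ± 0.187) lower past the unadjusted threshold. That is 2 of 10 higher and 1 of 10 lower, against 3.55% and 3.04% of all genes and 6.59% in either direction. Their adjusted p were 0.75, 0.677 and 0.729 in edgeR's quasi-likelihood test, and 0 of the 10 passed the adjusted threshold in edgeR or in DESeq2. The FOS value of the sensitive lines was 0.26 without OV2008, 0.92 without HeyA8_MDR and 0.93 without OV2008_C13, and it did not pass in any of these 3 fits, nor with DESeq2 (0.91), DESeq2 size factors (0.92), library size alone (0.94) or the 6 sensitive libraries alone (0.925). JUNB did not pass without HeyA8 (0.44) or without OV2008 (0.43), nor MYC without HeyA8 (-0.26) or without SKOV3 (-0.47). EGR1 stood at 0.78 ± 0.406 and did not pass in the main fit. It passed with the 6 sensitive libraries alone (0.76), with no filter on low counts (0.79) and without HeyA8 (1.01), HeyA8_MDR (0.76) or SKOV3_TR (0.76). It did not pass without SKOV3 (0.98), OV2008 (0.34) or OV2008_C13 (0.77), nor with DESeq2 (0.75). FOSB, at 0.52 ± 0.52, passed without SKOV3 (0.94).

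In the resistant lines FOS (log2 change 1.37 ± 0.418 SE, 95% interval 0.458 to 2.28) and FOSB (1.28 ± 0.489, 0.211 to 2.35) were higher and none was lower past the unadjusted threshold, against 3.43% of all genes higher, 2.59% lower and 6.03% in either direction. Both had an adjusted p of 0.816 in edgeR's quasi-likelihood test, and again 0 of 10 passed the adjusted threshold in edgeR or in DESeq2. EGR1, at 0.63 in the resistant lines, was -0.07 without HeyA8_MDR and passed at 1.26 without SKOV3_TR. FOS did not pass without OV2008_C13 (1.09), nor FOSB without HeyA8_MDR (0.99) or without SKOV3_TR (1.23). MYC stood at -0.09 ± 0.186 here (adjusted p = 0.954, edgeR). DUSP6 had a log2 change of 0.69 ± 0.331 (SE, adjusted p = 0.818, edgeR) in the resistant lines and -0.11 ± 0.344 (adjusted p = 0.972, edgeR) in the sensitive lines, and neither passed in this fit. The resistant value passed the unadjusted threshold with the 6 resistant libraries alone (0.694) and with no filter on low counts (0.675). It also passed without HeyA8 (0.693), SKOV3 (0.692) or OV2008 (0.695). It did not pass with DESeq2 (0.70) or without HeyA8_MDR (0.58), SKOV3_TR (0.84) or OV2008_C13 (0.64).

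A test of resistant minus sensitive change addressed directly whether QC acted unequally on them. At an unadjusted p under 0.05, 0 of the 10 genes passed in edgeR or DESeq2, where 1.16% of all genes did in edgeR. With the isogenic family as the block, so that each resistant line was set against its own partner, DUSP6 passed (0.81, adjusted p = 1, edgeR). In the first fit, without the family block, the difference was 0.43 for FOS (95% interval -0.853 to 1.72), 0.34 for MYC (-0.235 to 0.917) and 0.81 for DUSP6 (0.805, -0.236 to 1.85), all with an adjusted p of 1 in edgeR. DUSP6 had the largest difference of the 10 in this fit, and FOSB in DESeq2 (1.17, against 0.85 for DUSP6). DUSP6 passed the unadjusted threshold without OV2008 (1.32), as did JUN (0.71), and stood at 0.20 without SKOV3. These intervals are wide and do not show that the lines responded alike.

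**Figure D3:**
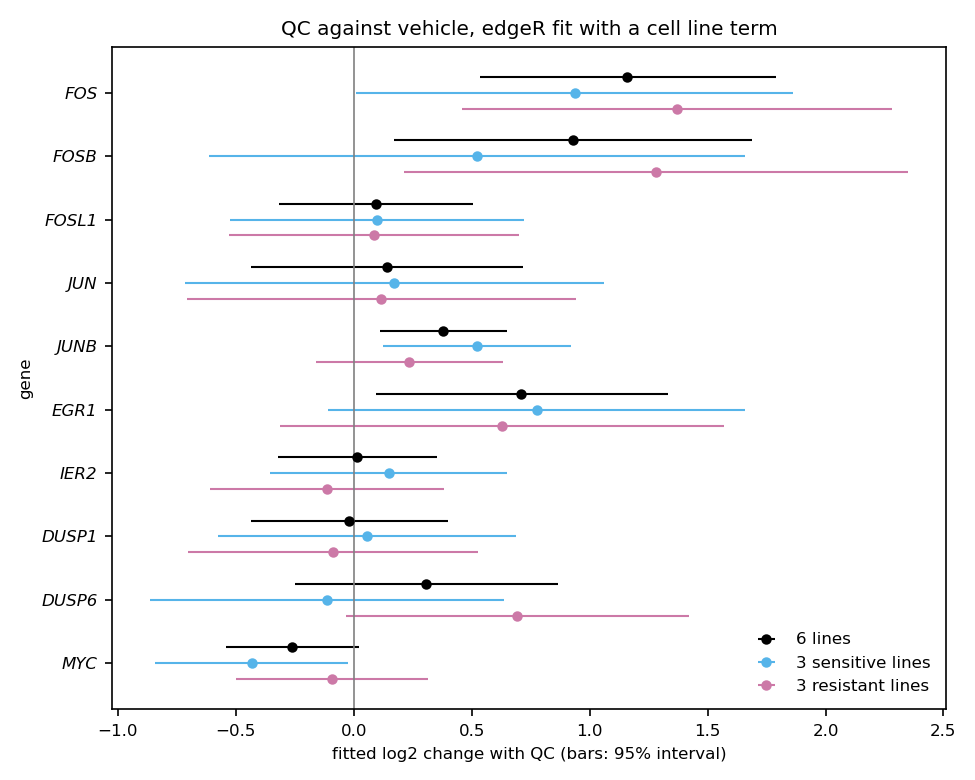
Fitted log2 change with QC over the 6 lines (black), the 3 sensitive lines (light blue) and the 3 resistant lines (pink), with approximate 95% intervals from edgeR's fit with a cell line term. The black intervals of FOS, FOSB, JUNB and EGR1 lie above 0, and the sensitive and resistant intervals of every gene overlap.

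Before QC, DUSP1 and DUSP6 passed the unadjusted threshold between resistant lines and their partners. DUSP1 was higher in the vehicle library of the resistant partner in 3 of 3 families, 1.84-fold in HeyA8_MDR, 6.08-fold in SKOV3_TR and 2.5-fold in OV2008_C13. DUSP6 was lower in 3 of 3, at 0.571, 0.532 and 0.308 of the sensitive partner. The fitted log2 differences, resistant minus sensitive, were 1.61 ± 0.429 for DUSP1 (SE, 3 families, 95% interval 0.543 to 2.67) and -1.13 ± 0.327 for DUSP6 (-1.94 to -0.319), with an adjusted p of 0.975 for both in edgeR's quasi-likelihood test. They were the 2 of 10 genes with an unadjusted p under 0.05, 1 higher and 1 lower, against 3.77% of all genes (1.9% higher and 1.87% lower). JUN and EGR1 also passed with DESeq2 (1.46 and -1.06) and with no filter on low counts (1.47 and -1.06). After adjustment edgeR and DESeq2 called 0 of the 10. DUSP6 did not pass the unadjusted threshold without the OV2008 family (-0.82), and DUSP1 passed without any one family (1.12 to 1.97).

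FOS and IER2 kept 1 direction in all 3 families without passing the test. FOS stood at 0.752, 0.754 and 0.785 of the sensitive partner in HeyA8_MDR, SKOV3_TR and OV2008_C13 (adjusted p = 0.977, edgeR), and IER2 at 1.34-fold, 1.25-fold and 1.41-fold (adjusted p = 0.975, edgeR). Of all genes, 13.1% were higher and 11.5% lower in the resistant partner in 3 of 3 families. JUN was 7.56-fold higher in SKOV3_TR and 4.01-fold higher in OV2008_C13 but at 0.587 in HeyA8_MDR (adjusted p = 0.975, edgeR). EGR1 was at 0.454 and 0.247 of the partner in HeyA8_MDR and SKOV3_TR and level in OV2008_C13 (adjusted p = 0.975, edgeR), and MYC was 2.87-fold higher in SKOV3_TR alone. The vehicle libraries of these comparisons also enter the QC comparisons, so they are not independent.

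**Figure D4:**
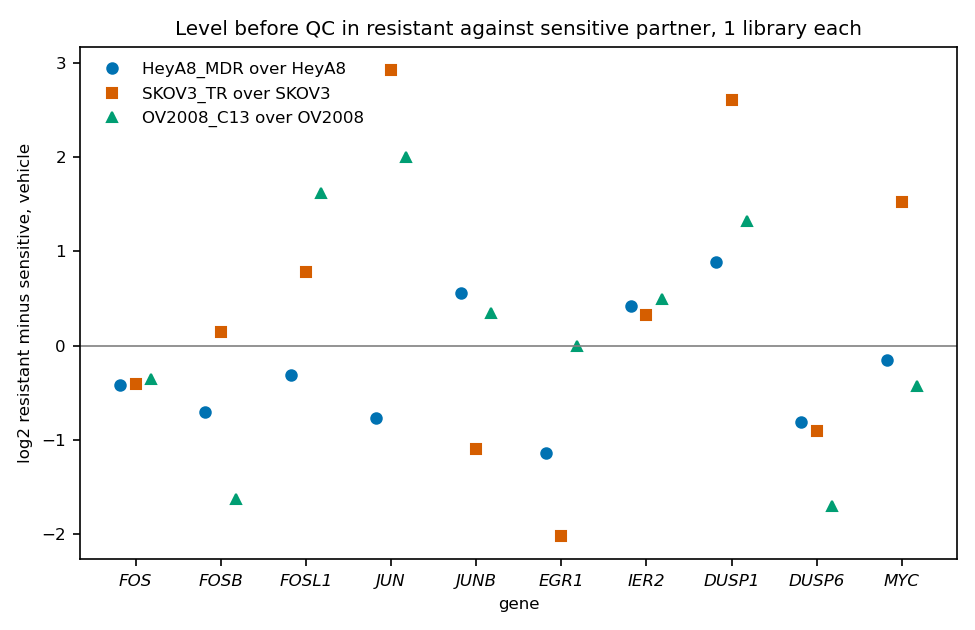
Log2 difference of vehicle level between each resistant line and its sensitive partner (1 library each, prior count 2) for the 10 genes, with symbol and colour by family. The 3 symbols of DUSP1 and IER2 lie above 0 and those of FOS and DUSP6 below it, while those of JUN, JUNB and MYC fall on both sides.

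The wider pathway was read from 7 further gene lists. Of 28 other immediate early genes, 7 were higher with QC over the 6 lines at an unadjusted p under 0.05 and 0 lower (edgeR), with a median log2 change of 0.36. The shares of all genes for this and the other lists, without RPLP0 scaling, were 7.99% higher, 7.18% lower and 15.2% in either direction. Scaling to RPLP0 lifted the median of all genes to 0.18. It put 18% of all genes under an unadjusted p of 0.05, 92.9% of them higher, which is the background for every RPLP0 count below. Of these 28, 12 were then higher, with a median less that of all genes of 0.368 against 0.356. EGR2, a relative of EGR1, led them at 1.76 ± 0.373 (SE, adjusted p = 0.141, edgeR) and was higher in 6 of 6 lines, with 0 to 212 counts. KLF10, a zinc finger gene of the early response to TGF-beta, followed at 0.68 ± 0.163 (adjusted p = 0.149, edgeR), also in 6 of 6 lines. The other 5 that passed were GADD45B (0.56), PPP1R15A (0.64), KLF6 (0.59), KLF4 (0.49) and KLF2 (0.45).

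Among 11 tested AP-1 relatives and partners, 2 were higher and 2 lower at an unadjusted p under 0.05 (edgeR, median 0.14). Scaling to RPLP0 gave 4 higher and 0 lower, with the median less that of all genes at 0.136, against 0.134 without it. ATF3, the stress-induced partner of JUN, had a log2 change of 1.47 ± 0.36 (SE, adjusted p = 0.153, edgeR). ATF3 was higher in 5 of 6 lines, with log2 changes of 2.9 in HeyA8, 1.5 in SKOV3, 2.41 in OV2008, 1.5 in HeyA8_MDR and 1.11 in OV2008_C13 and -0.69 in SKOV3_TR. Its change was smaller in the resistant than in the sensitive lines, with a difference of -1.63 that passed the unadjusted threshold only (adjusted p = 1, edgeR). Of the 11 genes 3, ATF3 among them, were lower for that difference at an unadjusted p under 0.05, against 1.16% of all genes in either direction. MAFF, a small MAF protein, had 0.55 ± 0.197 (adjusted p = 0.222, edgeR). The 2 that were lower were JDP2 (-0.68), which restrains AP-1, and BATF2 (-0.68).

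In the MAP kinase lists few genes passed. Of 15 ERK output and feedback genes 2 were higher and 0 lower, SPHK1 (0.59 ± 0.128 SE, adjusted p = 0.141, edgeR), which makes sphingosine 1-phosphate, and the ephrin receptor gene EPHA4 (0.83 ± 0.277, adjusted p = 0.203, edgeR), with a list median of 0.11 that was -0.00935 without OV2008. Scaling to RPLP0 gave 5 higher. SPRY2 and SPRY4, the feedback inhibitors of ERK signalling, stood at 0.09 and 0.13 and did not pass. Of 8 other MAP kinase phosphatases DUSP5 (0.495 ± 0.139, adjusted p = 0.169, edgeR) and DUSP4 (0.54 ± 0.209, adjusted p = 0.251, edgeR) were higher and 0 lower, with a median of 0.00132. Of 20 genes of the cascade and of its serum response inputs 3 were higher, led by the kinase gene MAPK9 (0.37 ± 0.12, adjusted p = 0.197, edgeR) and NRAS (0.25 ± 0.108, adjusted p = 0.297, edgeR), and 0 lower, with a median of 0.14 (7 higher with scaling to RPLP0).

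The MYC network was read from a list of partners and a list of targets. Of 10 tested MYC partners and relatives 2 were higher, MXD1 at 0.83 ± 0.16 (SE, adjusted p = 0.131, edgeR) and MXI1 at 0.305 ± 0.12 (adjusted p = 0.26, edgeR). Both are antagonists that compete with MYC for MAX. MXD1 was above vehicle in 6 of 6 lines, by 0.367 or more, and so was MXI1, though level in OV2008 (0.00353). Of all genes 4.13% were above in 6 lines. In this list 0 were lower and the median was -0.08 (0.11 with scaling to RPLP0). Of 20 MYC target genes 6 were lower and 0 higher, with a median of -0.18, while scaling to RPLP0 gave 0 lower and 3 higher. The median less that of all genes was -0.178 under RPLP0 and -0.182 without it. Leaving out HeyA8 gave 2 lower, in a fit where 12% of all genes passed and 55% of those were higher. CAD, of pyrimidine synthesis, stood at -0.55 ± 0.179 (SE, adjusted p = 0.198, edgeR) and NOP56, of the nucleolar ribonucleoproteins, at -0.33 ± 0.11 (adjusted p = 0.198, edgeR). Both were below vehicle in 6 of 6 lines, where 16.3% of all genes were below in at least 5. CAD was nearly level in SKOV3 (-0.00397) and SKOV3_TR (-0.0791) and fell most in HeyA8_MDR (-1.52) and HeyA8 (-0.839). NOP56 ran from -0.181 in SKOV3 to -0.634 in OV2008_C13. In every one of the 7 lists 0 genes passed the adjusted threshold in edgeR. Leaving out OV2008 gave 6 of 28 immediate early genes higher, with a median of 0.20, and 5 of 20 MYC targets lower. In that fit 10.1% of all genes passed, 52.7% of them higher.

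**Figure D5:**
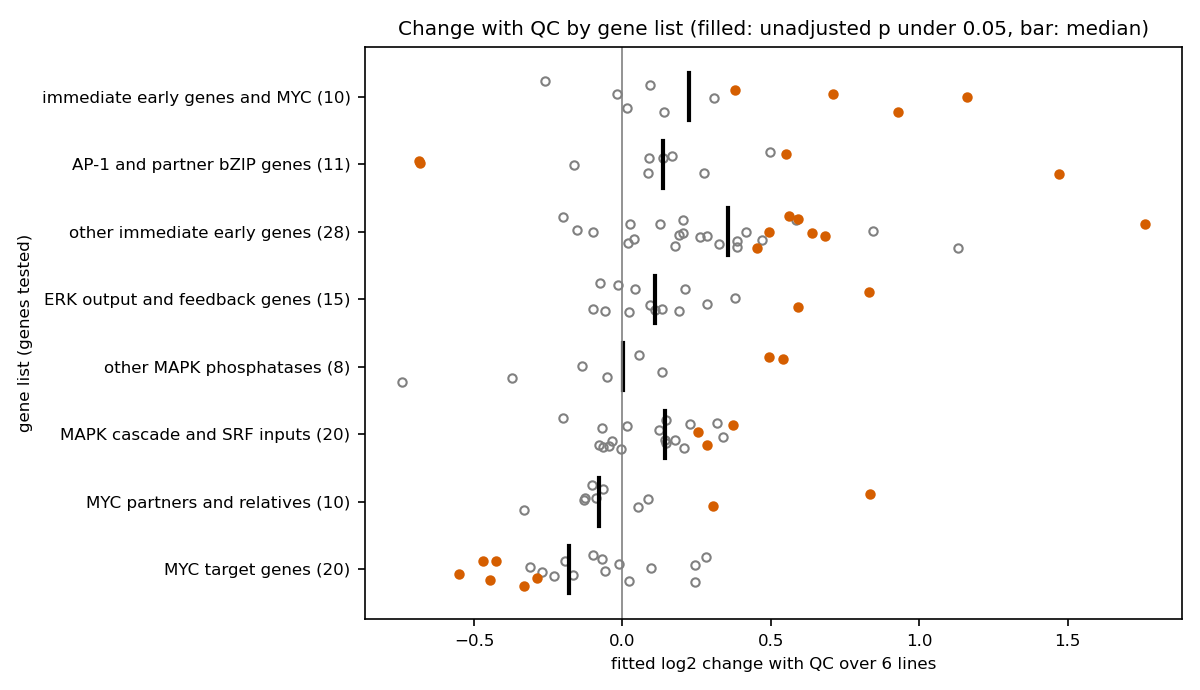
Fitted log2 change with QC over 6 lines for the 10 genes and the 7 gene lists, 1 point per gene with vertical scatter for legibility only. Filled points have an unadjusted p under 0.05 and the black bar is the list median. The median of the other immediate early genes is 0.36 and that of the MYC targets -0.18, against 0.00 (0.000101) for all genes.

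A score over the 10 genes, the mean of their standardized log2 levels, was lowest in the SKOV3 libraries (-0.86 in vehicle and -1.14 with QC) and highest in OV2008 with QC (0.94). The 5 genes outside the list whose log2 levels followed it best over the 12 libraries were ENSG00000266088 (Pearson r = 0.95), FHL2 (0.944), AADAC (0.935), MYPN (0.93) and MIOS-DT (0.929). FHL2, a LIM domain protein, had 1180 to 7628 counts, while the other 4 reached 0 to 4 counts in their lowest library. The 12 points are 6 lines with 2 libraries each, so these values describe mostly how the lines differ.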

How the data were processed

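Poly(A) RNA of 12 cultures was sequenced, and the authors deposited raw read counts per gene, not normalized, in 1 table for the series. The submitters' processing notes name STAR 2.7.3a, HTSeq 0.6.1p1 and GRCh38.p13, whereas the article names TopHat and hg19, so the aligner and build are uncertain, and the table holds no coordinates. Of 60669 Ensembl IDs 58663 had a symbol (2006 had none, 0.132% of counts). Even numbers made up 64.3% to 68.6% of counts from 1 to 20 but 47.7% to 53% of those from 101 to 200, so both mates of a pair may have been counted at low levels; this was not tested. The QC and vehicle libraries of a line came from the same line, and pairs correlated at 0.893 to 0.929 in their deviations from group means.

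Counts were filtered with filterByExpr over 4 groups (18720 genes; 16091 for vehicle alone), scaled by TMM and fitted with edgeR 4.0.16 (R 4.3.3, limma 3.58.1) by the quasi-likelihood test, with a term for cell line, or for isogenic family in vehicle. All 12 libraries shared 1 estimate of spread. SE is the log2 change over the root of F, and intervals (95%) are approximate. Whether lines stand for separate experiments beyond the label is not given, so p-values measure the spread between these lines. CPM are TMM scaled; folds within a line use a prior count of 2, and levels per kb use exon lengths of GENCODE lifted to GRCh37. A count of 0 was given an upper limit of 3 counts. Alternatives were DESeq2 1.42.0, other scalings and filters, other blocks and leaving out lines; lists without HeyA8 or OV2008 were added after seeing the data. The fits were tested on simulated data. The 10 genes and the lists were chosen with earlier results of these data known. Named were all 10, the 2 genes of each list with the smallest unadjusted p, the 5 most like the score, and markers that a check turned on; JDP2, BATF2, SPRY2, SPRY4, GADD45B, PPP1R15A, KLF6, KLF4 and KLF2 were named after their values were seen. Promoters are RefSeq GRCh38.p14. Figures were drawn with matplotlib 3.10.9 (Python 3.11.15).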

Additional observations from a re-analysis of the deposited data

Results flagged for a closer look

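SKOV3 stood apart from the other 5 lines in 2 of the 10 genes. The log2 change of FOSB with QC was -2.56 in SKOV3 with a prior count of 2, and 0.70 to 1.73 in the other 5 lines, so that its gap to the nearest line took 0.759 of the whole range. Since its counts there went from 10 to 0, that value and the gap depend on the prior count (-4.37 with a prior count of 0.5). Against the upper limit set for a count of 0, FOSB was 3.07-fold lower, with the 10 vehicle counts taken as exact and each count as a separate fragment. The log2 change of DUSP6 was -1.50 in SKOV3, from 515 to 166 counts, and 0.19 to 0.87 in the others, with a gap of 0.714 of the range. Both gaps are past the 95% critical value of Dixon's gap ratio for 6 values, a mark that chance alone passes in about 1 in 20 groups, and 10 genes were looked at. No cause was tested.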

How the results depend on the processing

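The values here are counts of the 10 genes at an unadjusted p under 0.05 unless stated. Without the cell line term (no replicate block) 0 of 10 passed over 6 lines (4 as reported), 0 in the sensitive (3) and 0 in the resistant lines (2). Without the family term 0 passed in vehicle (2). Few of all genes passed in these fits, 0.6%, 0.16%, 0.123% and 0.646% in the same order. These counts of 0 therefore do not set the 10 genes apart from all genes. The cause of the drop was not tested. The adjusted count over 6 lines was 1 with DESeq2 (2.77% of all genes) and 3 (FOS, FOSB and EGR1) with no filter on low counts (2%). With no filter the resistant count was 4 (4.13% of all genes), the difference 1 (1.27%) and the vehicle count 4 (4.36%). With DESeq2 the vehicle count was 4 (6.58%). At least 10 counts in every library left 1 in the resistant lines (9.14% of all genes), since FOSB was then not tested. With the isogenic family as the block, the difference count was 1 (DUSP6, 0.81), against 2.34% of all genes. Leaving out each line gave 2 to 5 over 6 lines, 2 to 4 in sensitive lines, 1 to 3 in resistant lines, 0 to 2 for the difference and, by family, 1 to 4 in vehicle. The shares of all genes in these fits, in the same order, were 10.1% to 15.5%, 4.02% to 10.1%, 2.07% to 6.97%, 0.931% to 2.73% and 3.47% to 4.08%.

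The sign over 6 lines turned for 4 genes that did not pass that comparison. FOSL1 was -0.0238 and JUN -0.13 without the cell line term. Leaving out a line gave FOSL1 -0.0751 to 0.19, JUN -0.16 to 0.33, IER2 -0.14 to 0.10 and DUSP1 -0.20 to 0.10. In the groups, EGR1 in resistant lines was -0.07 without HeyA8_MDR and FOSB in sensitive lines -0.10 without OV2008. Scaling to RPLP0 gave DUSP1 0.16, moved the median of all genes to 0.18 and made 92.9% of genes under p 0.05 higher, against 52.6%; FOS was then 1.33 and EGR1 0.91. Without the HeyA8 line the 4 genes called over 6 lines still passed. Low counts limit FOSB in SKOV3 and SKOV3_TR most.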
